A study of Homo sapiens with 16 samples.

Results

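SPRR2D and PI3 are 2 genes of cornified epithelium, the horny surface layer of skin, that were detected in a glioblastoma cell line under ischemic culture. They were chosen by their higher levels in ischemic than in regular cells, so the contrast between the cultures is given below as a description, with no test. They are 2 of the 13559 genes of the first experiment and 2 of the 14024 genes of the second. The cells were LN229, a line from a human glioblastoma. In ischemic culture glucose, glutamine and serum were lowered together with oxygen, whereas regular culture was complete medium. The first experiment compared untreated cells in both cultures, and the second treated cells in both cultures with the vehicle DMSO, with VX745, an inhibitor of the kinase p38α, or with MK25, an inhibitor of MK2, the kinase that p38α activates. Each of the 8 groups had 2 libraries, 16 in all, and the labels give neither the time in culture nor whether replicates came from separate cultures. The p-values therefore measure only the spread between these libraries, which may be technical. Groups of 2 libraries can also separate by sampling alone, and the share of all genes that separate was not counted. Non-overlap of groups is thus given below as a description.

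SPRR2D is a small proline-rich protein of the cornified envelope, the shell of cross-linked protein that replaces the plasma membrane of a keratinocyte as it dies at the skin surface. Transglutaminases join it to involucrin, loricrin and other precursors, and it lies among its paralogs in the epidermal differentiation complex. PI3, also called elafin or SKALP, is a secreted inhibitor of neutrophil elastase and proteinase 3 with a WFDC domain and a stretch that transglutaminases can link into the same envelope. Both genes are known to be low in resting skin and higher in wounded or inflamed epithelium, where stress kinases, AP-1 and NF-κB act on them.

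SPRR2D (Entrez gene 6703) lies on chromosome 1 of GRCh38, from 153039732 to 153041120 on the minus strand, and its canonical transcript has 2 exons with 677 bases, 216 of them coding. PI3 (Entrez gene 5266) lies on chromosome 20, from 45174902 to 45176544 on the plus strand, and its transcript has 3 exons with 551 bases, 351 of them coding. The deposited tables hold 1 value per gene and library, so exons and untranslated regions are not separated. SPRR2D has close paralogs in the same complex. Of the 628 words of 50 bases in its transcript, 212, or 33.8%, also occur in transcripts of other genes, which are all SPRR2 genes. SPRR2B shares 24.4% of the words, SPRR2A 22.0%, SPRR2E 15.3%, SPRR2F 10.2%, SPRR2G 6.85% and SPRR2C 1.11%. How the counting treated reads that fit several genes is not given in the sources used here, so the SPRR2D values are uncertain as to which SPRR2 gene the reads came from. PI3 shares 0 of its 502 words with other genes.

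Between 20122017 and 37562668 reads per library lay on the listed genes, and reads per gene were recovered from the deposited log2 values. Levels below are normalized CPM, read counts scaled by the authors to a common library size. At a limma adjusted p below 0.05 and a fold of 2 or more, 11.3% of all genes rose and 9.10% fell under ischemia untreated, and 9.03% rose and 8.11% fell with DMSO. Of 9 hypoxia markers on a list, 9 rose untreated and 8 with DMSO, where EGLN3 was higher by less than a fold of 2. All 11 markers of glioma cells had values, and 3 rose and 4 fell untreated, while 2 rose and 2 fell with DMSO. Among those that fell, SOX2, a stem cell factor, had log2 changes of -3.11 and -2.23, and NES, or nestin, of -1.37 and -1.06. The median log2 change over the glioma markers was -0.79 untreated and -0.39 with DMSO. Their summed level, to which the most abundant genes add most, was higher under ischemia. It was 8255 to 8392.5 CPM in untreated ischemic and 4630.7 to 4670.6 CPM in untreated regular libraries. In the second experiment it was 7220.2 to 7229.5 CPM in ischemic libraries with DMSO. Regular libraries of all treatments there had 4100.3 to 4487.5 CPM. Of 32 markers of epithelial cells, 14 had values in experiment 1 and 15 in experiment 2, among them KRT14, KRT8, KRT18, KRT7, CLDN4 and DSC2. Others, such as EPCAM, CDH1, KRT5 and TP63, had no values here. The summed level of the epithelial markers was 240.6 to 246.5 CPM in untreated ischemic and 224.0 to 239.0 CPM in untreated regular libraries. The table of the second experiment was normalized apart from the first, so a level in one is not set against a level in the other.

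SPRR2D had 561 and 287 reads in the untreated ischemic libraries, or 20.3 and 13.6 CPM. It had 1 read in each untreated regular library, or 0.0405 and 0.0357 CPM. The groups did not overlap, and the ratio of their levels was 458, with a 95% counting interval from 126 to 3790 that covers counting error only. Since the regular libraries were under the floor of 3 reads taken here for detection, the width of this interval comes mainly from 2 reads. The regular level is bounded only from above, so the exact ratio is not known. At 3 reads the log2 value was -2.30 and -2.40 in the regular libraries, against 4.35 and 3.77 measured in the ischemic libraries. On the log2 scale of the deposited values, which carry an offset of about 2 reads, the difference was 7.12 ± 0.28 (SE, n = 2 per group), the 4th highest of all 13559 genes. With 0.5 reads added in place of the offset the difference was 8.19, so its SE leaves out the effect of the offset.

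In the second experiment SPRR2D had 1328 and 1795 reads in ischemic cells with DMSO, or 54.0 and 61.1 CPM. Regular cells with DMSO had 71 and 60 reads, or 2.26 and 2.43 CPM, so the gene was detected in regular culture there. The ratio was 24.8 (counting interval 20.8 to 29.8), and the log2 difference was 4.58 ± 0.15 (SE), the 24th highest of 14024 genes. Both experiments thus placed ischemic above regular libraries, from regular levels of 1 read in one table and 60 to 71 reads in the other.

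PI3 was a far rarer transcript. Untreated ischemic libraries had 9 and 6 reads of PI3, or 0.326 and 0.283 CPM, and untreated regular libraries had 0 and 3 reads, or 0 and 0.107 CPM. The ratio was 5.40, with a counting interval from 1.53 to 29.1, and rests on 15 and 3 reads. Both regular libraries were at or under the floor of 3 reads, so the exact ratio is not known. At 3 reads the log2 value was -2.30 and -2.40 in the regular libraries, against -1.29 and -1.45 measured in the ischemic libraries. The log2 difference of 1.63 ± 0.64 (SE) ranked 657th. The groups did not overlap, by a margin of 3 reads.

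With DMSO, PI3 had 54 and 47 reads in ischemic cells, or 2.20 and 1.60 CPM, and 19 reads in each regular library, or 0.604 and 0.769 CPM. The ratio was 2.77 (counting interval 1.89 to 4.13), and the log2 difference of 1.37 ± 0.32 (SE) ranked 720th. Every ischemic DMSO library was above every regular one. Per kilobase of exon, ischemic DMSO cells held 85.0 CPM of SPRR2D and 3.45 CPM of PI3. Both members lay among the 11.3% of genes called higher in ischemic cells untreated and the 9.03% with DMSO. After quantile normalization PI3 was under a fold of 2 untreated, with a log2 difference of 0.87. The rule used these contrasts, so nothing is read from that.

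**Figure D1:**
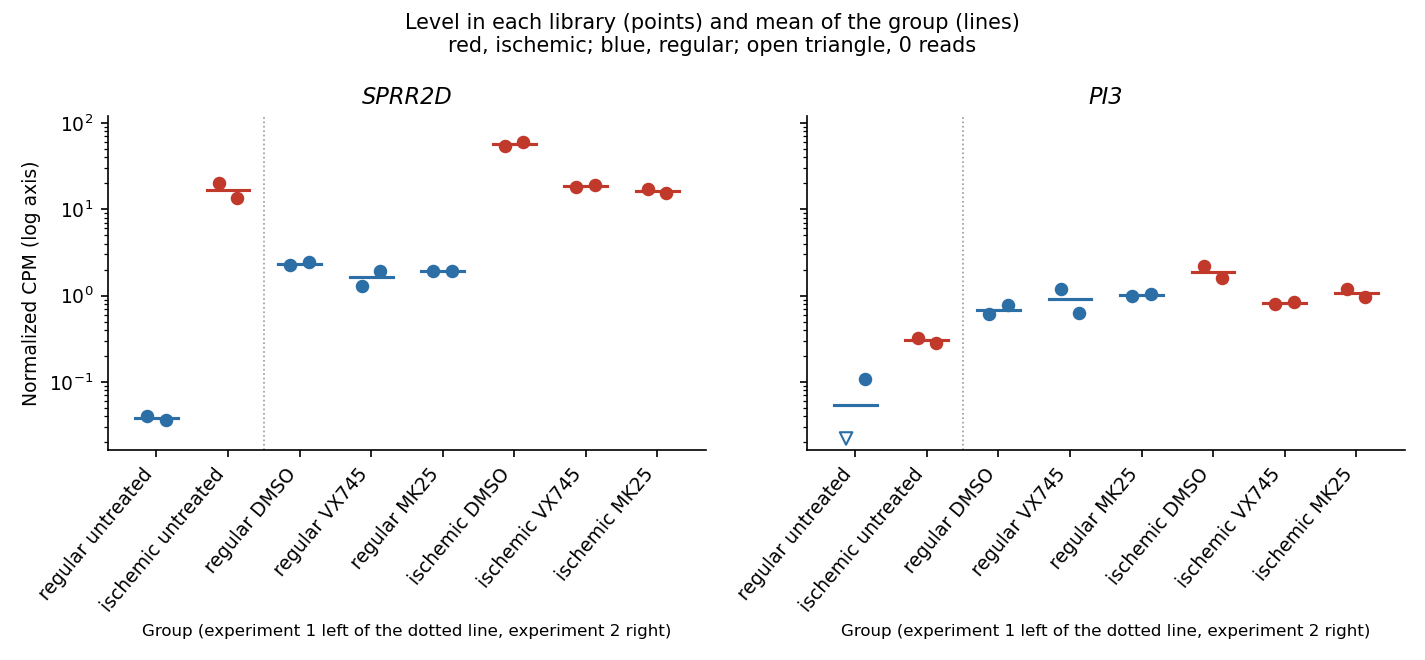
Normalized CPM on a log axis for SPRR2D (left) and PI3 (right) in each library (points) of the 8 groups, with the group mean (line), ischemic in red and regular in blue. SPRR2D is highest in ischemic cells with DMSO, at 54.0 and 61.1 CPM, and PI3 stays at or below 2.20 CPM in every library, with 0 reads in 1 untreated regular library (open triangle).

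The second experiment asked whether blocking p38α or MK2 alters gene expression in ischemic cells. The choice of the members did not use these contrasts, but their control, the ischemic DMSO libraries, also served the contrast that chose them. A DMSO value that is high by sampling would favour both the choice of a gene and a fall with either inhibitor. The folds, p-values and ranks of the falls below may thus be overstated. SPRR2D had 589 and 600 reads in ischemic cells with VX745, or 17.9 and 19.3 CPM, against 54.0 and 61.1 CPM with DMSO. It had 638 and 542 reads with MK25, or 17.3 and 15.4 CPM. Each inhibitor library was below each DMSO library, and each was above every regular library. SPRR2D fell 3.08-fold with VX745 (95% interval 2.46 to 3.85, limma adjusted p = 1.59e-06), a log2 change of -1.62 ± 0.15 (SE). It fell 3.51-fold with MK25 (2.81 to 4.39, limma adjusted p = 1.24e-07), a log2 change of -1.81 ± 0.15. These were the 13th and the 16th most negative changes of 14024 genes. For inhibitors the threshold was an adjusted p below 0.05 together with a fold of 1.5 or more. Genes called lower made up 0.906% of all genes with VX745 and 2.65% with MK25. Genes called higher made up 4.35% and 7.02%. Of all calls, 82.8% were higher with VX745 and 72.6% with MK25, and quantile normalization lowered these shares to 62.6% and 56.4%.

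PI3 had 26 reads in each ischemic library with VX745, or 0.792 and 0.838 CPM, against 2.20 and 1.60 CPM with DMSO. It fell 2.20-fold (95% interval 1.37 to 3.53, limma adjusted p = 0.0145), a log2 change of -1.14 ± 0.32 (SE), the 33rd most negative of 14024 genes. Both VX745 libraries were below both DMSO libraries. This call rests on few libraries, and its DMSO control also served the choice of the gene. The adjusted p was 0.0807 without VX745 replicate 1 and 0.0630 without VX745 replicate 2 of the ischemic cells, and 0.140 without ischemic DMSO replicate 1, with log2 changes of -1.10, -1.17 and -0.92.

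With MK25, PI3 had 44 and 34 reads in ischemic cells, or 1.19 and 0.964 CPM. The log2 change from DMSO was -0.77 ± 0.32 (95% interval -1.45 to -0.082), and its limma adjusted p of 0.0674 missed the threshold. The 2 groups did not overlap, which is a description only. The call depended on the fit. The adjusted p was 0.0181 after quantile normalization, 0.0277 by voom on the recovered reads and 0.0274 with only the 2 groups compared, and it was also under 0.05 without either library of regular cells with VX745, at 0.0497 without replicate 1 and 0.0450 without replicate 2.

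The inhibitors were then compared with each other at the doses the study used. SPRR2D differed by -0.19 on the log2 scale between MK25 and VX745 in ischemic cells (95% interval -0.51 to 0.13, limma adjusted p = 0.439). PI3 differed by 0.37 (-0.32 to 1.05, limma adjusted p = 0.489). Neither difference passed the threshold, which 3.96% of genes did in either direction, and the intervals allow a difference of either sign.

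The same contrasts were made in regular cells. SPRR2D had 33 and 44 reads with VX745, or 1.30 and 1.95 CPM, and 40 and 44 reads with MK25, or 1.90 and 1.92 CPM, against 2.26 and 2.43 CPM with DMSO. Each inhibitor library was below both DMSO libraries. The log2 change was -0.53 with VX745 (95% interval -0.86 to -0.21, limma adjusted p = 0.129) and -0.28 with MK25 (-0.61 to 0.039, limma adjusted p = 0.244), and neither passed the threshold. The VX745 value rests on the 2 VX745 libraries, with -0.25 without replicate 1 (limma adjusted p = 0.492) and -0.81 without replicate 2 (limma adjusted p = 0.0501). Over all genes, 0.0998% passed the threshold with VX745 in regular cells and 2.49% with MK25. With MK25 in regular cells 6 of 9 hypoxia markers rose and 0 fell, with a list median of 0.96, and with VX745 0 passed. BNIP3, a mitophagy receptor, had 136 and 127 CPM with MK25 against 37.8 and 32.8 CPM with DMSO. The part of these markers in the MK25 values of either member was not tested.

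PI3 had 30 and 14 reads in regular cells with VX745, or 1.19 and 0.621 CPM, and 21 and 24 reads with MK25, or 0.999 and 1.05 CPM, against 0.604 and 0.769 CPM with DMSO. The VX745 libraries lay on either side of the higher DMSO library, whereas both MK25 libraries were above both DMSO libraries. The log2 change was 0.31 with VX745 (95% interval -0.38 to 0.99, limma adjusted p = 0.697) and 0.54 with MK25 (-0.15 to 1.22, limma adjusted p = 0.300). Without regular VX745 replicate 1, the one with 30 reads, the former was -0.12.

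The effect of an inhibitor in ischemic cells minus its effect in regular cells was -1.09 ± 0.22 (SE, log2) for SPRR2D with VX745 and -1.53 ± 0.22 with MK25. For PI3 it was -1.44 ± 0.46 with VX745 and -1.31 ± 0.46 with MK25. These differences contain the contrast that chose the genes and were not tested. Each of the 4 values was negative. Choosing genes that are high in ischemic cells with DMSO favours that sign, and the values share their DMSO libraries. Their common sign is therefore not read as a result.

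The cultures were also set side by side within each inhibitor. SPRR2D was still 11.6 times as high in ischemic as in regular cells with VX745 (counting interval 9.19 to 14.8) and 8.55 times with MK25 (6.85 to 10.8). The log2 differences were 3.49 ± 0.15 and 3.05 ± 0.15 (SE). PI3 had a ratio of 0.886 with VX745 (counting interval 0.582 to 1.36) and 1.06 with MK25 (0.722 to 1.56). These intervals cover counting error only, and each allows a higher level in either culture, so the cultures were not told apart. The log2 differences of PI3 were -0.074 ± 0.32 and 0.064 ± 0.32 (SE), and both changed sign when 1 library was left out, to 0.36 without regular VX745 replicate 1 and to -0.081 without ischemic MK25 replicate 1.

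**Figure D2:**
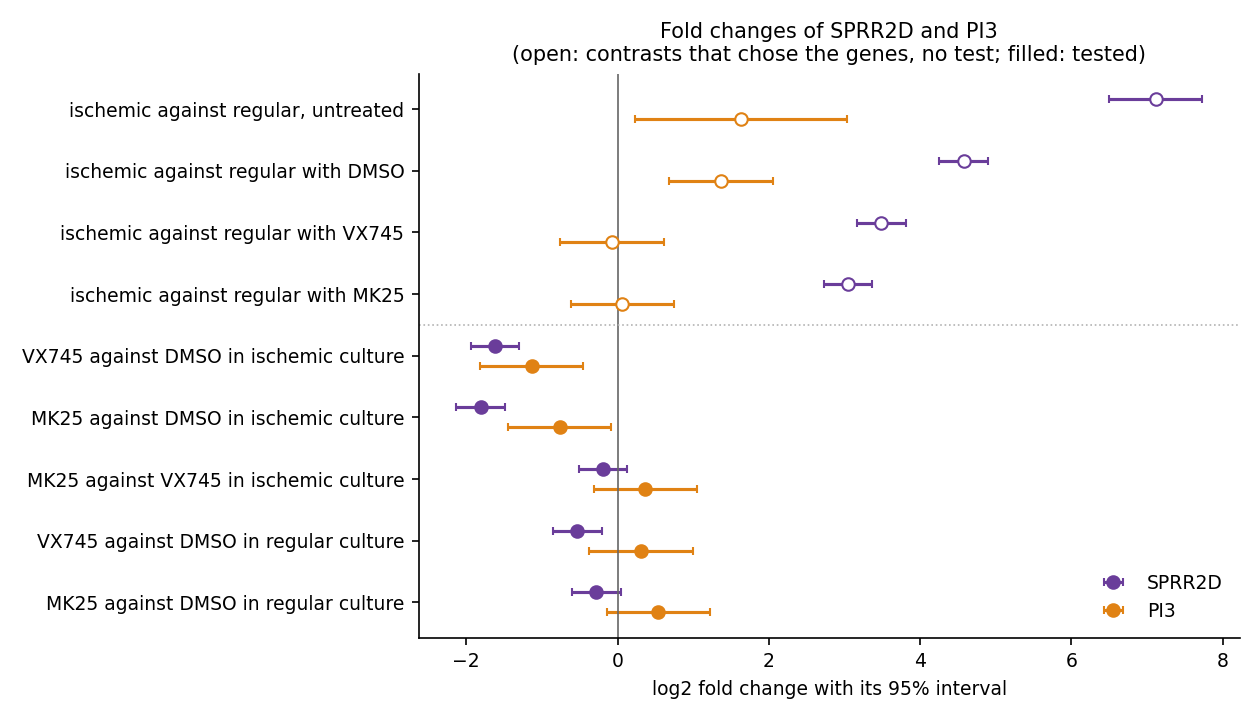
Log2 fold changes of SPRR2D (purple) and PI3 (orange) with 95% intervals in 9 comparisons. Open points are the contrasts that chose the genes and filled points were tested. SPRR2D lies at -1.62 and -1.81 with the inhibitors in ischemic cells, and PI3 at -1.14 and -0.77.

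In order of level, SPRR2D in the second experiment had a mean log2 value of 5.85 ± 0.13 (SD, n = 2) in ischemic cells with DMSO, 4.23 ± 0.076 with VX745 and 4.03 ± 0.12 with MK25. Regular cells followed with 1.27 ± 0.073 with DMSO, 0.99 ± 0.010 with MK25 and 0.74 ± 0.39 with VX745. The steps from ischemic DMSO to VX745 and from ischemic MK25 to regular DMSO were larger than the spread between libraries. Ischemic VX745 and MK25 differed by more than the SD of either group but did not pass the test. The same held for regular DMSO and MK25. Regular MK25 and VX745 differed by more than the SD of MK25 but by less than that of VX745. For PI3 the order was ischemic DMSO with 0.96 ± 0.31, ischemic MK25 with 0.19 ± 0.20, regular MK25 with 0.13 ± 0.046, regular VX745 with -0.10 ± 0.61, ischemic VX745 with -0.17 ± 0.053 and regular DMSO with -0.41 ± 0.22. Ischemic DMSO was above the next group by more than either SD. From ischemic MK25 down, neighbours differed by less than the larger of their SDs, except ischemic VX745 and regular DMSO, whose difference was close to it.

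Other genes of the cornified envelope were described from a list of 36, of which 10 had values in experiment 1 and 13 in experiment 2. Neither experiment gave values for the 9 SPRR relatives on a list of their own, nor for IVL, LORICRIN or TGM3, which encode main components of the envelope and an enzyme that links them. In untreated cells 3 of 10 rose under ischemia and 0 fell, where 11.3% of all genes rose and 9.10% fell. CSTA, a cystatin that is cross-linked into the envelope, had 29 and 12 reads in ischemic and 2 and 0 reads in regular libraries (limma adjusted p = 0.000595). ALOXE3, a lipoxygenase of the skin lipid barrier, rose by a log2 change of 2.11 (limma adjusted p = 0.000236), and ABCA12, a transporter of barrier lipids, by 1.78 (limma adjusted p = 1.31e-06). The other 7 were FLG, PPL, PERP, SBSN, S100A10, S100A11 and ANXA1, with log2 changes from 0.089 for PERP to 0.92 for S100A10, all under a fold of 2. The median over the list was 0.79, against -0.0090 over all genes.

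With DMSO, 2 of 13 rose and 2 fell, against 9.03% and 8.11% of all genes. CSTA rose again, with 39 and 38 reads in ischemic and 2 and 4 reads in regular libraries, as did ALOXE3 with a log2 change of 2.98 (limma adjusted p = 2.10e-06). TGM1, the transglutaminase that builds the envelope at the membrane, fell by 1.94 on the log2 scale (limma adjusted p = 0.000139), and EVPL, encoding the scaffold protein envoplakin, fell by 1.53 (limma adjusted p = 0.000594). The list median was 0.41.

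Most of these genes did not pass the threshold with an inhibitor. In ischemic cells with VX745, 1 of 13 rose and 0 fell, against 4.35% and 0.906% of all genes, and with MK25 1 rose and 1 fell, against 7.02% and 2.65%. EVPL rose by 2.13 with VX745 and by 2.39 with MK25, from 10 and 9 reads with DMSO to 60 and 54 and to 82 and 74 reads, the opposite direction to SPRR2D. ANXA1, a phospholipid-binding protein of many cell types, fell by 0.65 with MK25 (limma adjusted p = 4.04e-07). CSTA had log2 changes of -0.90 with VX745 and -0.78 with MK25 (limma adjusted p = 0.161 and 0.195). The list medians were -0.048 and -0.20.

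Among 23 protease inhibitors of epithelia, 7 had values in experiment 1 and 8 in experiment 2. SLPI, the closest relative of PI3 in function, had no values here. In untreated cells 2 rose under ischemia and 1 fell, against 11.3% and 9.10% of all genes. With DMSO 2 rose and 0 fell, against 9.03% and 8.11%. WFDC3, which like PI3 has WFDC domains, rose by 3.05 untreated (limma adjusted p = 4.01e-08) and by 2.87 with DMSO (limma adjusted p = 9.51e-10). SERPINB5, or maspin, rose by 1.20 untreated and by 1.93 with DMSO. SERPINB7 fell by 2.08 untreated (limma adjusted p = 2.49e-06), and with DMSO its change was -0.93. WFDC2, SERPINB1, SERPINB2, CSTB and, in the second experiment, SPINK5 did not pass the threshold in either contrast, with changes from -0.18 for CSTB to 0.93 for SERPINB2, both untreated.

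SERPINB5 and SERPINB2 fell with each inhibitor in ischemic cells. SERPINB5 had 210 and 242 reads in ischemic cells with DMSO, 79 and 62 reads with VX745 and 62 and 61 reads with MK25. Its log2 change was -1.90 with VX745 (limma adjusted p = 4.98e-06) and -2.25 with MK25 (limma adjusted p = 2.62e-07). SERPINB2, an inhibitor of plasminogen activators, changed by -1.14 (limma adjusted p = 3.01e-05) and -1.55 (limma adjusted p = 4.02e-07). They were the 2 of 8 that fell with VX745, against 0.906% of all genes, and 0 rose. With MK25 SERPINB7 also fell, with a change of -0.70, and SPINK5, the inhibitor of skin kallikreins, rose by 0.73 (limma adjusted p = 0.0434), which makes 3 lower and 1 higher, against 2.65% and 7.02% of all genes. WFDC3 did not follow PI3, with changes of -0.14 and -0.28 (limma adjusted p = 0.642 and 0.279).

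Of 20 regulators known to act on epithelial barrier genes, 18 had values in each experiment. Under ischemia 7 rose and 1 fell untreated, against 11.3% and 9.10% of all genes, and 6 rose and 1 fell with DMSO, against 9.03% and 8.11%. The AP-1 subunit FOSL2 rose by 2.51 untreated and by 2.14 with DMSO. The ETS factor ETS1 rose by 1.58 and 1.80, JUND by 1.54 and 1.41, and RELA, the p65 subunit of NF-κB, by 1.36 and 1.20. JUN and FOSL1 also rose in both experiments, and CEBPA fell, with -1.59 and -1.21. KLF4 passed the threshold untreated, with a log2 change of 1.00, and was under a fold of 2 with DMSO, with 0.96. The list medians were 0.54 and 0.65.

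With VX745 in ischemic cells 1 of 18 regulators rose, JUN by 0.79, and 1 fell, JUNB with -0.97, against 4.35% and 0.906% of all genes. With MK25, 2 rose and 5 fell, against 7.02% and 2.65%. FOS rose by 1.30 and CEBPD by 0.76, whereas ETS1 (-0.91), FOSB (-0.71), EHF (-0.63), KLF4 (-0.61) and JUN (-0.59) fell, so JUN changed in opposite directions under the inhibitors. FOSL1, whose levels follow those of SPRR2D most closely in this list, had changes of -0.40 and -0.49 (limma adjusted p = 0.000524 and 4.03e-05), under the fold of 1.5.

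Markers of epithelial cells were counted in the same way. Untreated, 3 of 14 rose under ischemia and 1 fell, against 11.3% and 9.10% of all genes. With DMSO 5 of 15 rose and 1 fell, against 9.03% and 8.11%. KRT17, a keratin of wounded skin, rose by 1.14 untreated and by 2.47 with DMSO. The others that rose were KRT7 and the splicing factor ESRP1 in both experiments and KRT15 and KRT16 with DMSO, while the transcription factor GRHL1 fell, with -2.20 and -1.24. With VX745, KRT17 changed by -1.21 (limma adjusted p = 0.000200) and KRT16 by -0.76 (limma adjusted p = 0.0298), the 2 of 15 that fell, against 0.906% of all genes, and 0 rose. With MK25, 6 fell, against 2.65% of all genes, and 0 rose, led by KRT17 with -1.77, KRT16 with -1.65 and KRT15 with -1.07. The summed level of the epithelial markers in ischemic cells was 344.4 to 359.0 CPM with DMSO, 291.4 to 297.0 CPM with VX745 and 232.2 to 239.9 CPM with MK25. Regular libraries of all treatments in this experiment had 252.25 to 300.34 CPM. The labels name LN229 cells alone, with no separate epithelial cells. In bulk RNA of this line, fewer cells that express a gene and less RNA per cell cannot be told apart. The part of these markers in the results for SPRR2D and PI3 was not tested. Of 9 neutrophil markers, listed because elafin inhibits neutrophil enzymes, only CSF3R, the receptor of a neutrophil growth factor, had values, at 1.71 CPM or less in every library. CSF3R rose under ischemia by a log2 change of 2.28 untreated (limma adjusted p = 0.000782) and of 2.80 with DMSO (limma adjusted p = 0.000146), and its part in the results for the members was not tested. With the inhibitors in ischemic cells its changes were -0.53 and 0.0039 (limma adjusted p = 0.480 and 0.996).

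**Figure D3:**
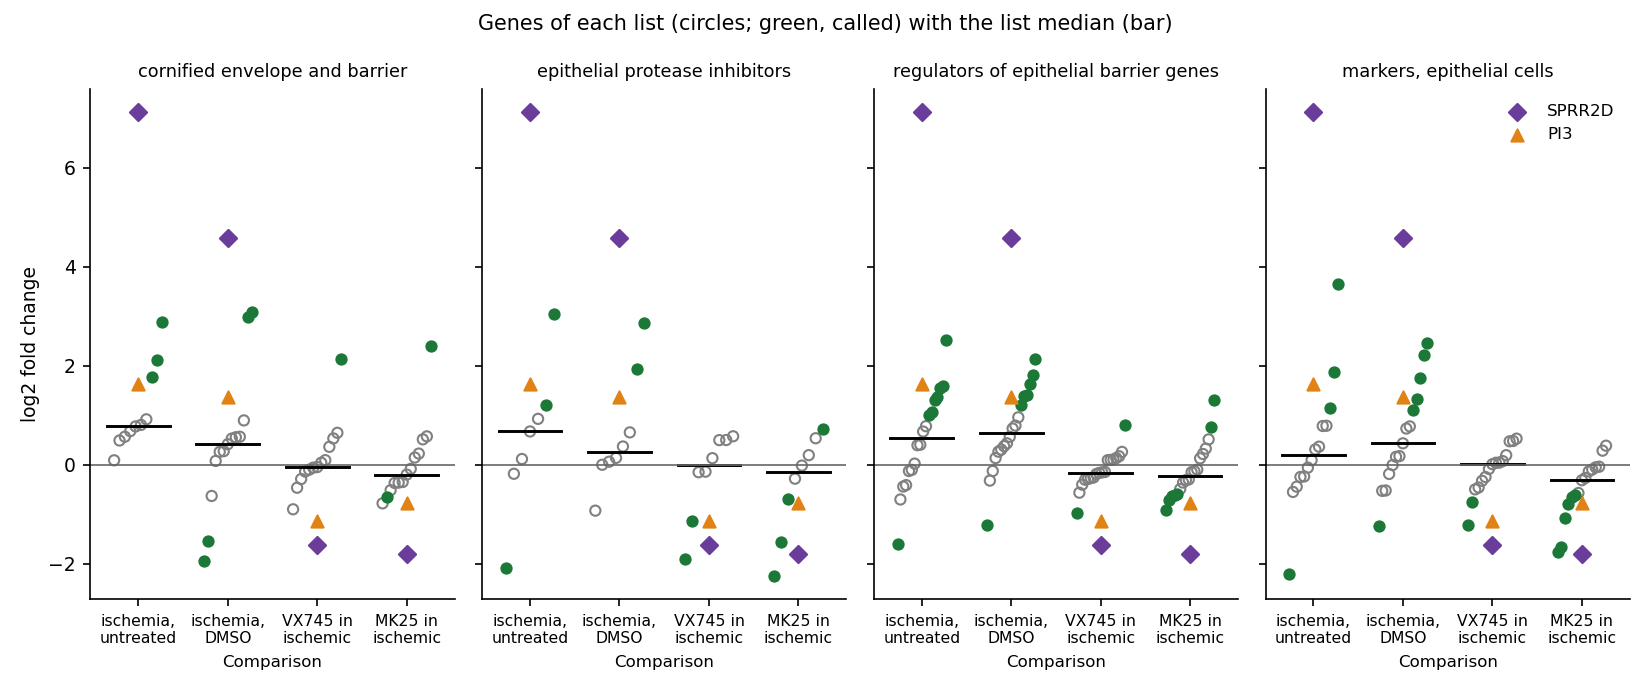
Log2 fold changes (vertical axis) of the genes of 3 lists and of the epithelial markers (circles, green where called) in 4 comparisons, with the list median (bar), SPRR2D (purple diamond) and PI3 (orange triangle). SPRR2D lies above every listed gene under ischemia, at 7.12 and 4.58, and under both inhibitors SERPINB5 is below it, at -1.90 and -2.25.

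Of the listed and marker genes called in these 4 comparisons, quantile normalization kept the call of 32 of 35 under ischemia untreated, 29 of 32 with DMSO, 8 of 9 with VX745 and 17 of 20 with MK25.

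Genes near the members on the chromosome were looked up after the values had been seen. Of 44 protein-coding genes within 500 kb of SPRR2D, a stretch that holds much of the epidermal differentiation complex, 2 had values. PRR9, a proline-rich gene of the same complex, had 86 and 97 reads in ischemic cells with DMSO, or 3.50 and 3.30 CPM, and 5 and 3 reads in regular cells with DMSO. In untreated cells it had 9 and 5 reads in ischemic and 2 and 0 reads in regular libraries. With the inhibitors in ischemic cells PRR9 had 2.04 and 2.68 CPM with VX745 and 2.66 and 1.70 CPM with MK25, each below both DMSO libraries. S100A6, a calcium-binding protein of many cell types, had 1287 and 1268 CPM in ischemic and 1127 and 1092 CPM in regular cells with DMSO. Thus the neighbour that is a proline-rich gene was higher in ischemic libraries by log2 4.04 with DMSO, and S100A6 by 0.20.

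Of 29 protein-coding genes within 500 kb of PI3, 11 had values in experiment 1 and 12 in experiment 2. WFDC2 was the only WFDC gene among them, with log2 changes of 0.67 untreated and 0.14 with DMSO. RBPJL had the highest change, 4.47 untreated and 3.80 with DMSO, followed by MATN4 with 3.97 and 2.15, and both had higher reads in every ischemic than in every regular library. Neither followed PI3 under VX745 in ischemic cells, with changes of -0.10 for RBPJL and 0.70 for MATN4.

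The genes whose log2 values were most like those of the members over the 12 libraries of the second experiment were ranked by Pearson's correlation, as a description. The libraries share 2 cultures and 6 groups, and high values are common. For SPRR2D the 5 highest were P4HB (r = 0.996), FOSL1 (r = 0.995), ZFAND3, WDR45B and EIF1 (each r = 0.994), and 1831 genes had r above 0.9. P4HB encodes a protein disulfide isomerase of the endoplasmic reticulum, and FOSL1 an AP-1 subunit. P4HB had 2700 and 2768 CPM in ischemic cells with DMSO, 2410 and 2429 CPM with VX745, and 1726 and 1808 CPM in regular cells with DMSO, a narrower range than that of SPRR2D. Over the 6 ischemic libraries alone the 5 highest were YBX3, RPS15A and ST3GAL4 (each r = 0.999), EEF1A1 and BTF3 (each r = 0.998), with 1432 genes above 0.9.

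For PI3, LTAP1 was the only gene with r above 0.9 over 12 libraries (r = 0.907), and others among the 5 highest were SMAD4 (r = 0.886), FBL (r = 0.883) and MIR1914 (r = 0.876). Over the 6 ischemic libraries the highest were SLC35H1 (r = 0.997), UFD1 (r = 0.994), INE1 and CRYBB2P1 (each r = 0.991) and SMAD4 (r = 0.988), with 508 genes above 0.9. SPRR2D and PI3 correlated with each other at r = 0.595 over 12 libraries, where PI3 ranked 4836th for SPRR2D, and at r = 0.860 over the 6 ischemic libraries. PI3 had 14 to 54 reads per library in this experiment.

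**Figure D4:**
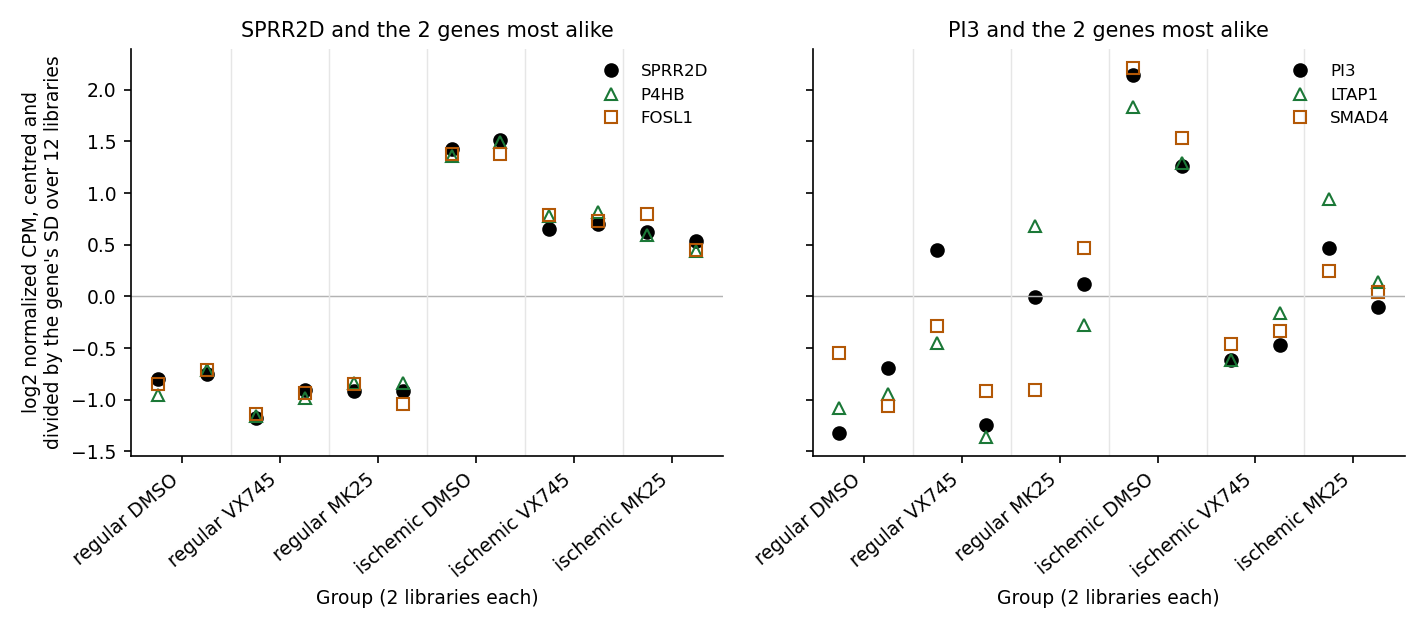
Log2 normalized CPM in the 12 libraries of the second experiment, centred on the gene's mean and divided by its SD, for SPRR2D with P4HB and FOSL1 (left) and for PI3 with LTAP1 and SMAD4 (right), 2 libraries per group. On the left the 3 genes fall into the same order of groups (r = 0.996 and 0.995 with SPRR2D), and on the right ischemic DMSO is highest for each gene (r = 0.907 and 0.886 with PI3).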

How the data were processed

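LN229 RNA was measured in 16 libraries, 2 in each of 8 groups. They were made with the SMART-Seq mRNA HT and Nextera XT kits. Reads were trimmed and aligned to GRCh38 (HISAT2 in Galaxy, with edgeR for expression) by the authors, who deposited log2 normalized CPM for each library. The counting program is not given in the sources used here. Entrez identifiers were matched to symbols for 99.4% and 99.3% of genes.

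The unlogged values rise in whole reads (100% within 0.01 read), which gave reads per gene. The log2 values were tested as deposited with limma 3.58.1 in R 4.3.3 (1 mean per group, variance trend, two-sided, Benjamini-Hochberg over all genes), checked on simulated data. Calls needed an adjusted p below 0.05 together with a fold of 2 between cultures or 1.5 for inhibitors. The members and lists were chosen with earlier results of these data known. Named list genes are all measured members of lists of up to 10, otherwise up to 4 called per direction with the largest fold, and further ones were named after their values were seen. Alike genes are the 5 highest correlations among genes with at least 10 reads in 2 libraries, and 1 that this rule selects is not reported here. Gene models came from GENCODE 44 and RefSeq. Figures were made with Python 3.11.15 and matplotlib 3.10.9. The alternatives were a replicate block, median centring, quantile normalization, no variance trend, 0.5 reads added in place of the offset, voom, a mean log2 of at least 0, only the groups compared and each library left out.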

Additional observations from a re-analysis of the deposited data

Results flagged for a closer look

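The MK25 and DMSO libraries of PI3 stood in opposite order in the 2 cultures, although neither change passed the threshold, with a log2 change of -0.77 in ischemic cells (limma adjusted p = 0.0674) and 0.54 in regular cells (limma adjusted p = 0.300). Both ischemic MK25 libraries, at 1.19 and 0.964 CPM, were below both ischemic DMSO libraries, at 2.20 and 1.60 CPM, whereas both regular MK25 libraries, at 0.999 and 1.05 CPM, were above both regular DMSO libraries, at 0.604 and 0.769 CPM. The effect in ischemic cells minus that in regular cells was -1.31 ± 0.46 (SE, log2). This difference was not tested, since it contains the contrast that chose the gene, and it rests on 19 to 54 reads per library. Choosing a gene that is high in ischemic cells with DMSO favours a fall with MK25 there. The share of all genes with such an opposite order was not counted, so the order is a description only.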

How the results depend on the processing

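The calls for SPRR2D with VX745 and MK25 in ischemic cells held in all 8 other fits, with limma adjusted p up to 0.000907 for VX745 and 0.000229 for MK25. With 1 library left out the log2 change ranged from -1.71 to -1.53 with VX745 and from -1.90 to -1.72 with MK25. Leaving out a library outside the groups compared alters only the SE. Every fit used ischemic DMSO libraries, which also served the choice of the gene, so the fits cannot address that limit. PI3 with MK25 in ischemic cells passed the threshold after quantile normalization (log2 change -1.05), by voom (-0.78) and with only the groups compared (-0.77), and ranged from -0.99 to -0.55 with 1 library left out (adjusted p 0.0450 to 0.339). PI3 with VX745 in ischemic cells passed in all 8 other fits, and ranged from -1.36 to -0.92 (adjusted p 0.00884 to 0.140) with 1 library left out. PI3 with VX745 in regular cells ranged from -0.12 to 0.74, and SPRR2D from -0.81 to -0.25.

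Among the untested differences between cultures, PI3 with MK25 turned to -0.13 after quantile normalization and ranged from -0.081 to 0.21 with 1 library left out, and PI3 with VX745 ranged from -0.50 to 0.36. In untreated cells the difference was 0.87 after quantile normalization, under the fold of 2, and 2.69 with 0.5 reads added for PI3 (1.03 to 2.24 with 1 library left out), and 6.61 and 8.19 for SPRR2D (6.83 to 7.41). The genes of the 4 lists called numbered 12 to 14, 11 to 14, 5 to 7 and 9 to 14 in the 4 comparisons across all fits. Causes of these shifts were not tested.

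The labels do not say whether replicate numbers pair the libraries, and the correlations that follow cannot decide it. Same-numbered libraries deviated together with r from -0.266 to 0.325 over 15 pairs of groups in the second experiment, with 4 over 0.1, and with r = 0.271 for the single pair of the first. With the replicate number as a block, no call for either gene changed, with adjusted p of 0.0150 for PI3 and 1.03e-06 for SPRR2D with VX745 in ischemic cells, 0.0696 and 7.64e-08 with MK25, and 14, 13, 5 and 13 list genes called in the 4 comparisons. With few reads of a member in many libraries, depth limits PI3 in all groups and SPRR2D in regular cells. SPRR2D had 1 read in each untreated regular library and 33 to 71 reads in the regular libraries of the second experiment.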
